A study of Mus musculus with 16 samples.

Results

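Chemokines are small secreted or membrane-tethered proteins that steer leukocytes along concentration gradients by binding receptors with 7 membrane spans. Members whose first cysteines are separated by 1 residue (CXC) and that carry the ELR motif, such as CXCL1, CXCL2 and CXCL5, attract neutrophils through CXCR2. CXCL10 attracts activated T cells through CXCR3, CCL2 and CCL7 attract monocytes through CCR2, and CCL20 attracts CCR6-positive lymphocytes and dendritic cells. CXCL16 and CX3CL1 (fractalkine) are made as membrane proteins that proteases shed. In islets, several of these ligands are known targets of interleukin-1β (IL-1β) signalling, in which the IL-1 receptor activates NF-κB and AP-1.

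The mRNAs of 9 chemokine ligands, *Cxcl1*, *Cxcl2*, *Cxcl5*, *Cxcl10*, *Cxcl16*, *Ccl2*, *Ccl7*, *Ccl20* and *Cx3cl1*, were followed in mouse islets. They were chosen by name, with earlier results of these data known, and are 9 of 52636 genes in the count table. Islets of 12-week-old male mice, given in the labels as strain C57BL/6JRj and in the methods as another C57BL/6 substrain, were cultured for 10 days in medium with human serum. They were left unexposed (control islets), exposed to 50 pg/ml recombinant mouse IL-1β, to IL-1β plus 0.2 mM sodium butyrate, or to 0.2 mM butyrate alone. Each condition had 4 libraries, one per independent experiment, made from 500 islets pooled over animals, so that single mice cannot be compared. Butyrate is a short-chain fatty acid produced by gut bacteria and an inhibitor of histone deacetylases.

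The 16 libraries held 18635943 to 25955943 counts. The summed level of 8 beta cell markers was between 137500 and 261800 CPM (counts scaled to the library total, with TMM factors), and it was lower in the IL-1β libraries (137500 to 179100) than in the control libraries (214000 to 236800). *Ins2* and *Ins1* held most of this sum, with means of 144900 and 51420 CPM in control islets. Of the 8 markers, 6 were lowered by IL-1β and 1, *Iapp*, was raised (edgeR, adjusted p under 0.01). Of all 18587 tested genes, 1224 were lowered and 2087 raised. Since whole islets were sequenced, fewer cells of a type and less RNA per cell cannot be told apart. A total of 3 counts was taken as the floor of detection in a library, which corresponded to 0.108 to 0.157 CPM.

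The upstream sequences of the members are shown first, as the DNA next to the starts of the genes described below. RefSeq start sites with sequence (GRCm38.p6) were matched for 5 of the 9 members. The 250 bases before each start are given 5′ to 3′ on the gene's strand, and capitals mark matches to 4 motifs. These are the NF-κB consensus, the ISRE core GAAANNGAAA and the AP-1 motif TGANTCA, searched on both strands, and TATAAA on the gene's strand.
Cxcl1, chr5:90890995-90891244, plus strand: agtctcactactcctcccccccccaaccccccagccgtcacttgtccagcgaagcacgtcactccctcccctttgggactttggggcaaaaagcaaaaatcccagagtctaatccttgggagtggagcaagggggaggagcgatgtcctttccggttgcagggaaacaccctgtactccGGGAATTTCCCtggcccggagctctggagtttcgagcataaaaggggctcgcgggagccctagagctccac
Cxcl2, chr5:90903649-90903898, plus strand: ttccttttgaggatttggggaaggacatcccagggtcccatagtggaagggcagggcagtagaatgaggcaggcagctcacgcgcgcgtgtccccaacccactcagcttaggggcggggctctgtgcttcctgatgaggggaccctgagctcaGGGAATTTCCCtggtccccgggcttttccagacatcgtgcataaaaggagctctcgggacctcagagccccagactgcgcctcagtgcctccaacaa
Cxcl10, chr5:92348890-92349139, minus strand: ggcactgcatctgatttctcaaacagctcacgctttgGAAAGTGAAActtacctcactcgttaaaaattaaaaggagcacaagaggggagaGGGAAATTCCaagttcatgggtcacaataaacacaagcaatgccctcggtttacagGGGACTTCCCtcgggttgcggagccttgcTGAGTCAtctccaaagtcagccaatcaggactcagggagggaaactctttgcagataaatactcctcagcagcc
Ccl20, chr1:83116516-83116765, plus strand: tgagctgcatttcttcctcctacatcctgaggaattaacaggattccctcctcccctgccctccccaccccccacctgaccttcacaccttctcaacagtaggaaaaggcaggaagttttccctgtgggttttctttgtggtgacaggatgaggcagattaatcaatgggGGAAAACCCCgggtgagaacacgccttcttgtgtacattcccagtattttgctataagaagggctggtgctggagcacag
Cx3cl1, chr8:94771930-94772179, plus strand: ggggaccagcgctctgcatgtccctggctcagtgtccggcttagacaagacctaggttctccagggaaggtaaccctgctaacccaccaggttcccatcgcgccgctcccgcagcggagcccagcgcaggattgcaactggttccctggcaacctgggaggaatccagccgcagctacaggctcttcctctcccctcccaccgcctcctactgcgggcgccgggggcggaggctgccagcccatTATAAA

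An NF-κB consensus match was present upstream of *Cxcl1*, *Cxcl2*, *Cxcl10* and *Ccl20*. Of 32851 RefSeq windows of the same length, 3.9% held this match. In *Cxcl1* it began 71 bases before the start and in *Cxcl2* 97 bases before it, and in both genes it was matched on both strands. These neighbouring genes shared there a run of 14 bases, GGGAATTTCCCTGG, the longest run common to both windows. *Cxcl10* held 2 NF-κB matches, beginning 159 and 103 bases before the start, with an ISRE core at 213 bases and an AP-1 match at 74 bases. The ISRE core was present in 2.98% of all windows and AP-1 in 6.75%. *Ccl20* held 1 NF-κB match on the minus strand, reaching from 80 to 71 bases before the start. The *Cx3cl1* window is not comparable with the others, since 171 of its 250 bases lie inside the gene as annotated by GENCODE, which starts further upstream (28 for *Cxcl2*, 4 for *Cxcl1* and 0 for *Cxcl10* and *Ccl20*). Its sole match was TATAAA, which ended at the base before the start and was present in 7.59% of all windows. A match is a stretch of letters and does not show that a factor binds there.

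**Figure D1:**
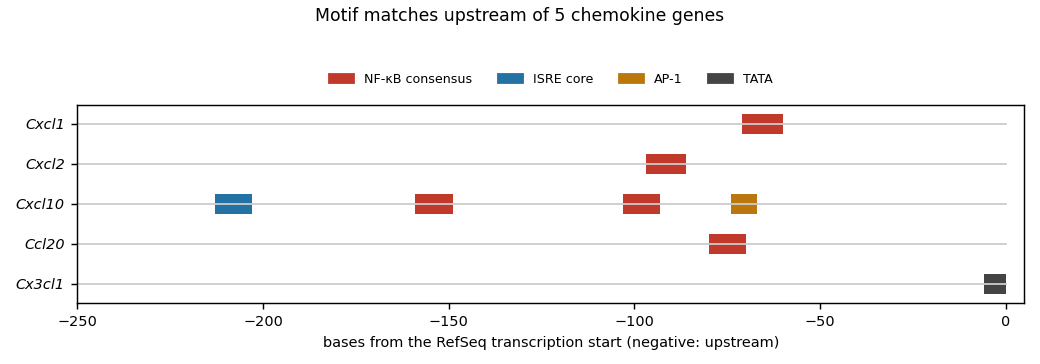
Positions of the motif matches in the 250 bases upstream of 5 chemokine genes, with the distance from the RefSeq start in bases on the horizontal axis and 1 line per gene. NF-κB matches (red) lie within 159 bases of the start in *Cxcl1*, *Cxcl2*, *Cxcl10* and *Ccl20*, and the *Cx3cl1* line, which lies mostly inside the GENCODE gene, carries TATAAA alone.

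The first comparison asked how 10 days of IL-1β changed the ligands. Of the 9 members, 7 had enough counts to be tested across all genes, and *Cxcl2* and *Ccl7* did not. With edgeR's quasi-likelihood test at an adjusted p under 0.01, 6 of the 7 were raised by IL-1β and *Cx3cl1* was not, whereas 11.2% of the 18587 tested genes were raised. The median log2 fold change was 2.08 over the tested members and -0.03 over all tested genes. *Cxcl1*, *Cxcl5*, *Ccl2* and *Ccl20* passed the filter on low counts only through their counts in libraries with IL-1β. The number of members called therefore describes the members and supports nothing further, here and in the comparisons below. The study selected *Cxcl1*, *Cxcl10* and *Ccl20* for display on these same samples.

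**Figure D2:**
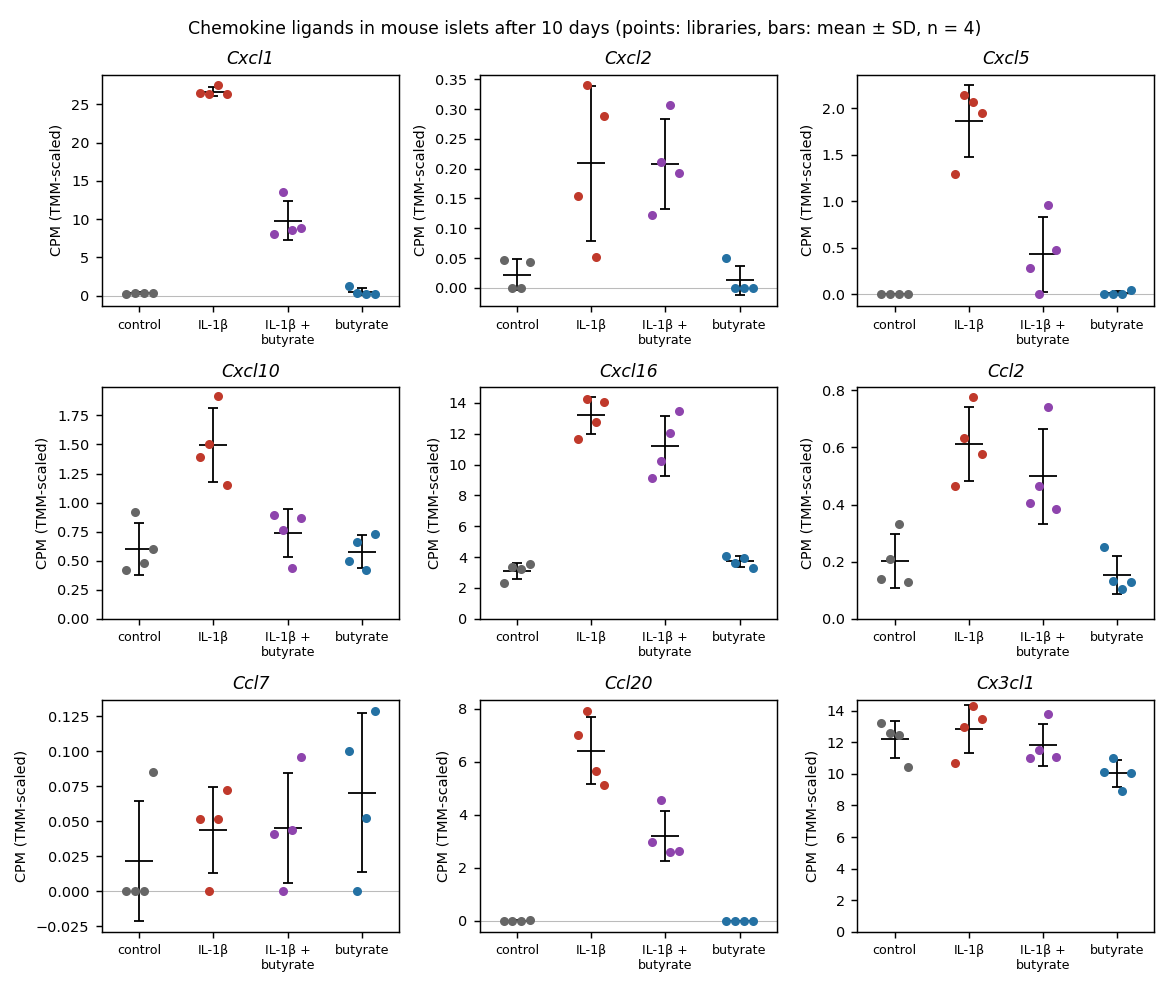
CPM of the 9 chemokine ligands in each of 16 libraries (points) by condition, with the mean and SD of 4 libraries (bars) and a separate vertical axis for each gene. *Cxcl1*, *Cxcl5*, *Cxcl16* and *Ccl20* separate the IL-1β libraries from the control libraries, *Cx3cl1* lies at 8.92 to 14.3 CPM throughout, and *Cxcl2* and *Ccl7* lie at or close to the floor.

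*Cxcl1* (chr5:90891241-90893115, 4 exons), a neutrophil attractant, had the highest level per kilobase of exon of all members in islets exposed to IL-1β. Control libraries 1 to 4 held 4, 9, 7 and 9 counts, and the IL-1β libraries 512, 542, 532 and 731 counts. The mean rose from 0.320 ± 0.0917 to 26.7 ± 0.581 CPM (SD, n = 4). The fitted difference was 6.34 on the log2 scale (SE 0.29, adjusted p = 7.0e-11). The IL-1β libraries lay within 26.3 to 27.5 CPM and did not overlap the control libraries.

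*Cxcl5* (chr5:90759360-90761624), another ELR chemokine, was not detected in control islets. No control library held a count, which allows up to 3 counts in each. The IL-1β libraries held 25, 44, 40 and 54 counts, or 1.86 ± 0.389 CPM, at least 13.9-fold above the floor (adjusted p = 8.2e-06). *Cxcl2* (chr5:90903871-90905938), 10.8 kb from *Cxcl1*, carries the same 14-base run with the NF-κB match and was close to the floor. It had 1, 0, 0 and 1 counts in control libraries and 3, 7, 1 and 8 counts after IL-1β. The level was at least 1.56-fold higher than the floor of the control islets. In CPM the ranges did not overlap, although 1 IL-1β library held no more counts than the highest control libraries (two-sided exact permutation test, p = 0.0286, n = 4 per group, the smallest p that this design allows). Without the filter on low counts, edgeR called it raised by IL-1β (adjusted p = 0.0064). These 3 neutrophil attractants are encoded within 1 region of chromosome 5, *Cxcl5* being 129.6 kb from *Cxcl1*.

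*Ccl20* (chr1:83116766-83119167) was the other member that went from the floor to a clear signal. The control libraries held 0, 0, 0 and 1 counts, and the IL-1β libraries 136, 163, 109 and 142 counts. Its level of 6.42 ± 1.28 CPM after IL-1β was at least 47.9-fold above the floor (adjusted p = 4.7e-13). *Cxcl16* (chr11:70453983-70459984, minus strand), the ligand of CXCR6 and a scavenger receptor, started from a detectable level. It had 50, 80, 68 and 83 counts in control libraries and 226, 293, 247 and 391 counts after IL-1β. The mean rose from 3.11 ± 0.537 to 13.2 ± 1.21 CPM, a log2 fold change of 2.08 (SE 0.13, adjusted p = 6.5e-13).

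*Cxcl16* shares 552 exon bases with *Zmynd15* on the opposite strand, and the library kit does not mark strand. *Zmynd15* rose from 1.38 ± 0.266 to 5.30 ± 0.867 CPM (log2 fold change 1.95, adjusted p = 2.3e-08), and reads from the shared bases of these genes cannot be told apart.

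*Cxcl10* (chr5:92346638-92348889, minus strand), the interferon-inducible T cell attractant, rose less. The control libraries held 9, 22, 10 and 14 counts and the IL-1β libraries 27, 31, 37 and 32 counts. The mean went from 0.603 ± 0.222 to 1.49 ± 0.318 CPM (log2 fold change 1.27, SE 0.27, adjusted p = 0.00081), and every IL-1β library was above every control library. *Art3*, which shares 133 exon bases with it on the other strand, was at 0.927 ± 0.218 CPM in control islets and 0.737 ± 0.368 CPM after IL-1β.

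*Ccl2* (chr11:82035571-82037453), the main monocyte attractant, rose at a low level. It went from 3, 5, 7 and 3 counts to 9, 13, 15 and 16 counts, or from 0.203 ± 0.0944 to 0.612 ± 0.130 CPM (log2 fold change 1.58, SE 0.38, adjusted p = 0.0024). The log2 fold change was 1.45 without control replicate 1 (adjusted p = 0.0105), 1.41 without control replicate 4 (0.0139) and 1.47 without IL-1β replicate 3 (0.0106), so that its size was similar but the call was lost. *Ccl7* (chr11:82045712-82047525), 8.3 kb further along, held at most 3 counts in any of the 16 libraries. It was at the floor in all 4 conditions and no fold change was given.

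*Cx3cl1* (chr8:94772009-94782427), whose product binds CX3CR1 on monocytes and macrophages, was the exception. The libraries held 284, 303, 261 and 245 counts in control islets and 207, 267, 276 and 374 counts after IL-1β. With 12.2 ± 1.20 and 12.9 ± 1.54 CPM the ranges overlapped, and the log2 fold change was 0.08 (95% interval -0.12 to 0.28, adjusted p = 0.58).

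The second comparison asked how the ligands differed when butyrate was added to IL-1β. Of 7 tested members, 4 were lowered, *Cxcl1*, *Cxcl5*, *Cxcl10* and *Ccl20*, and none was raised, beside 11.1% of all tested genes that were lowered. The median log2 fold change was -0.99 over the tested members and 0.01 over all tested genes. This comparison uses the same IL-1β libraries as the first, and the limit from the filter on low counts holds here too.

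*Cxcl1* fell to 198, 320, 197 and 184 counts, or 9.76 ± 2.55 CPM, which was 36.6% of its level with IL-1β alone (log2 fold change -1.45, SE 0.16, adjusted p = 6.7e-06). The highest library with both agents, replicate 2 with 13.6 CPM, was below the lowest with IL-1β alone. *Ccl20* fell to 73, 108, 59 and 55 counts, or 3.19 ± 0.939 CPM and 49.6% of its level with IL-1β alone (log2 fold change -0.998, SE 0.18, adjusted p = 0.00020). Both remained above control islets, with a log2 fold change of 4.90 for *Cxcl1* (adjusted p = 5.2e-09) and at least 23.8-fold for *Ccl20*.

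*Cxcl10* fell to 22, 18, 10 and 18 counts, or 0.739 ± 0.209 CPM, 49.5% of its level with IL-1β alone (log2 fold change -0.99, SE 0.27, adjusted p = 0.0054). With both agents its libraries overlapped the control libraries, and the log2 difference from control islets was 0.28 (95% interval -0.38 to 0.93, adjusted p = 0.52). The fall did not pass the threshold without IL-1β replicate 2 (adjusted p = 0.0120) or 3 (0.0244), nor without replicate 2 (0.0117) or 3 (0.0259) of IL-1β plus butyrate.

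*Cxcl5* varied most among the libraries with both agents, which held 7, 0, 22 and 10 counts, or 0.432 ± 0.405 CPM. All were below the IL-1β libraries (log2 fold change -2.12, SE 0.47, adjusted p = 0.0024), and replicate 2 was at 0. DESeq2 did not call this fall (adjusted p = 0.075). The edgeR call was also lost when only the libraries compared were fitted (adjusted p = 0.0101). It was lost without replicate 1 of IL-1β plus butyrate (adjusted p = 0.0104) or without butyrate replicate 4 (0.0141) as well. The summed level of 9 fibroblast and stellate markers in the same libraries was 6.81, 8.81, 22.9 and 15.1 CPM. This sum was 6.19 to 15.6 CPM with IL-1β alone, 10.2 to 19.0 in control libraries and 15.5 to 18.6 in butyrate libraries. *Cxcl5* was at the floor in the control and butyrate libraries. The part of these cells in the result was not tested.

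The other 3 tested members did not pass the threshold. *Cxcl16* had 225, 241, 276 and 280 counts with both agents, or 11.2 ± 1.93 CPM, and a log2 fold change of -0.24 (95% interval -0.48 to -0.01, adjusted p = 0.087). *Ccl2* had 10, 11, 17 and 8 counts (log2 fold change -0.28, 95% interval -0.98 to 0.42, adjusted p = 0.55), and *Cx3cl1* had 271, 272, 315 and 230 counts (log2 fold change -0.12, 95% interval -0.33 to 0.08, adjusted p = 0.35). *Cxcl2*, which was not tested across genes, had 3, 5, 7 and 4 counts, with means of 0.209 ± 0.131 CPM with IL-1β and 0.208 ± 0.0760 CPM with both agents.

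**Figure D3:**
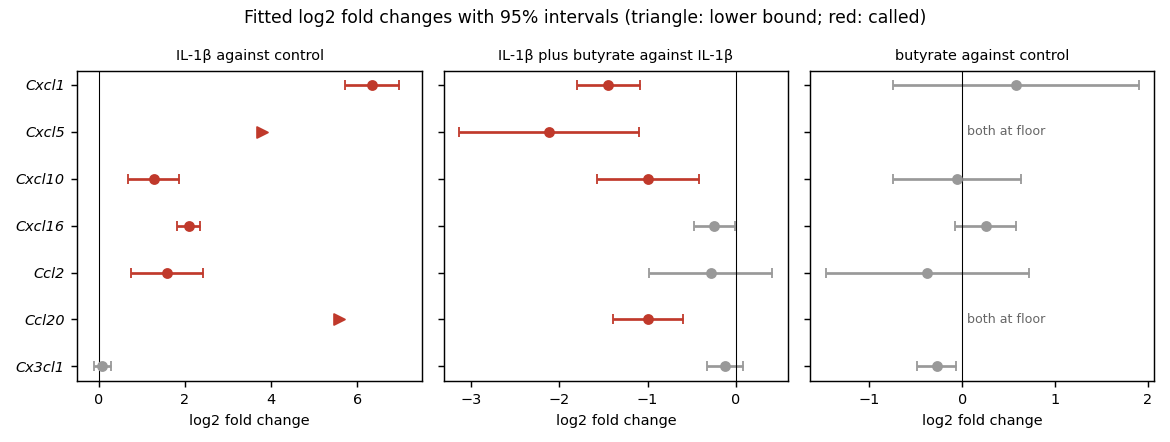
Fitted log2 fold changes of the 7 tested ligands in 3 comparisons with 95% intervals, red where the adjusted p was under 0.01 and grey otherwise. Triangles are lower bounds for genes at the floor in control islets, and the interval of *Cxcl1* in the middle panel lies wholly below 0 while those of *Ccl2* and *Cx3cl1* include it.

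With butyrate alone, *Cxcl5* and *Ccl20* were at the floor in both conditions and could not be called. Of the other 5 tested members 0 changed at an adjusted p under 0.01, beside 19.9% of all tested genes that changed in either direction. At an unadjusted p under 0.05 there was 1 member, *Cx3cl1*, and DESeq2 called 0 but gave *Ccl2* no adjusted p. *Cx3cl1* had 202, 248, 171 and 235 counts, or 10.0 ± 0.852 CPM (log2 fold change -0.28, SE 0.10, adjusted p = 0.031). It passed the threshold without control replicate 4 (adjusted p = 0.0098). *Cxcl1* had 24, 7, 4 and 6 counts, so that 1 library stood above the others, and its log2 difference from control islets of 0.57 became -0.30 without that library. *Ccl20* held 0 counts in all 4 butyrate libraries, and *Cxcl5* 0, 0, 0 and 1 counts.

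The log2 fold changes were 0.25 for *Cxcl16* (95% interval -0.08 to 0.58), -0.06 for *Cxcl10* (-0.75 to 0.64) and -0.38 for *Ccl2* (-1.47 to 0.72). *Ccl2* had 5, 3, 2 and 3 counts after butyrate, so its interval rests on few counts.

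Relative to control islets, IL-1β plus butyrate raised 5 of 7 tested members, beside 15.8% of all tested genes, with a member median of 1.84 (1.69 with genes at the floor set at their bound) and -0.003 over all genes. As in the first comparison, the filter on low counts favoured members that are high with IL-1β, so this count only describes the members. *Cxcl16* had a log2 fold change of 1.84 (adjusted p = 6.3e-12). *Ccl2* had 1.29 (SE 0.39, adjusted p = 0.0092), a call lost in 15 of 23 alternatives and reaching an adjusted p of 0.058 without replicate 3 of IL-1β plus butyrate. *Cxcl5*, for which replicate 2 overlapped the control libraries at 0, was at least 3.22-fold above the floor, and the exact two-sided permutation test gave p = 0.143 (n = 4 per group). Its edgeR call was lost without butyrate replicate 4 (adjusted p = 0.0104).

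Relative to butyrate alone, 5 members, *Cxcl1*, *Cxcl5*, *Cxcl16*, *Ccl2* and *Ccl20*, were raised, beside 9.92% of all tested genes. The same limit from the filter on low counts holds for this count. *Cxcl1* had a log2 fold change of 4.32 and *Cxcl16* of 1.59, and *Ccl20* was at least 22.4-fold above the floor of the butyrate libraries. The calls of *Cxcl5* and *Ccl2* here were lost in 10 of 23 and 5 of 23 alternatives, respectively. The highest adjusted p was 0.042 for *Cxcl5*, without butyrate replicate 4, and 0.027 for *Ccl2*, without replicate 3 of IL-1β plus butyrate.

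Whether the butyrate difference itself depended on IL-1β was tested as an interaction. Of the 7 tested members 0 passed an adjusted p of 0.01 in edgeR and 0 in DESeq2, beside 0.0968% of all tested genes in edgeR. DESeq2 gave no adjusted p for *Cxcl5*, *Cxcl10* and *Ccl2*, and its adjusted p for *Cxcl1* was 0.028. In edgeR, unadjusted p-values were under 0.05 for 3 members. The interaction in edgeR was -2.02 for *Cxcl1* (95% interval -3.41 to -0.63, adjusted p = 0.36) and -1.15 without butyrate replicate 1 (adjusted p = 0.77). It was -0.94 for *Cxcl10* (adjusted p = 0.62) and -0.49 for *Cxcl16* (adjusted p = 0.46). The lowering of *Cxcl1*, *Cxcl5*, *Cxcl10* and *Ccl20* by butyrate in the presence of IL-1β was therefore not shown to be particular to IL-1β, and *Cxcl5* and *Ccl20* were at the floor without it.

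Levels per kilobase of exon (RPKM, from the TMM-scaled CPM) gave an order of the ligands that differed between conditions with and without IL-1β. In control islets, *Cx3cl1* was first with 3.10 ± 0.304 RPKM and *Cxcl16* next with 1.03 ± 0.178, and their ranges did not overlap. *Cxcl10* (0.268 ± 0.0984), *Ccl2* (0.178 ± 0.0830) and *Cxcl1* (0.171 ± 0.0489) followed with overlapping ranges, and the other 4 were at the floor. After IL-1β the order was headed by *Cxcl1* with 14.2 ± 0.310 RPKM, ahead of *Ccl20* (4.52 ± 0.902) and *Cxcl16* (4.37 ± 0.401), which overlapped.

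Next came *Cx3cl1* with 3.27 ± 0.393 RPKM, whose range overlapped that of *Ccl20* but not that of *Cxcl16*, then *Cxcl5* (0.999 ± 0.209) and *Cxcl10* (0.662 ± 0.141), which overlapped each other. *Ccl2* (0.538 ± 0.114) overlapped *Cxcl10* and lay above *Cxcl2* (0.101 ± 0.0631). With both agents *Cxcl1* was still highest with 5.21 ± 1.36 RPKM, but its range overlapped that of *Cxcl16* (3.71 ± 0.638), which overlapped *Cx3cl1* (3.01 ± 0.334), which in turn overlapped *Ccl20* (2.24 ± 0.661). *Ccl2* (0.439 ± 0.146), *Cxcl10* (0.328 ± 0.0928), *Cxcl5* (0.232 ± 0.217) and *Cxcl2* (0.101 ± 0.0368) came next, each overlapping its neighbour. With butyrate alone the order was *Cx3cl1* (2.55 ± 0.217), *Cxcl16* (1.24 ± 0.115), *Cxcl1* (0.264 ± 0.253), *Cxcl10* (0.257 ± 0.0640) and *Ccl2* (0.136 ± 0.0576), with overlap among the last 3. The mean of *Cxcl1* was 0.138 ± 0.0271 RPKM (n = 3) without butyrate replicate 1, which places it below *Cxcl10*, so that no difference in order from control islets is read from it. Ligands compared between genes on this scale thus kept *Cx3cl1* first in both conditions without IL-1β.

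**Figure D4:**
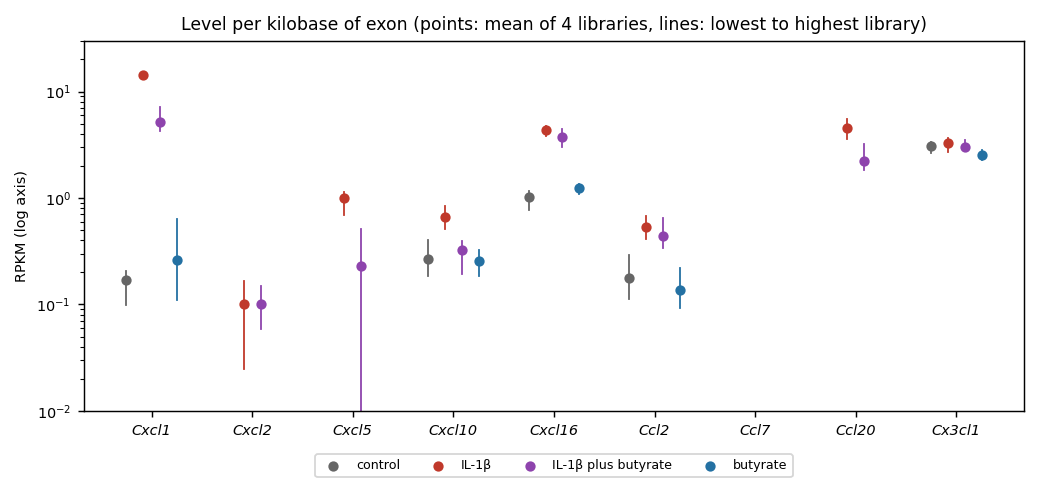
Level of each ligand per kilobase of exon (RPKM, log axis) in the 4 conditions, with points for the mean of 4 libraries and lines from the lowest to the highest library, and with conditions at the floor left out. *Cxcl1* spans 0.171 RPKM in control islets to 14.2 RPKM after IL-1β, whereas *Cx3cl1* stays between means of 2.55 and 3.27 RPKM. The line of *Cxcl5* with both agents runs to a library at 0, below the axis.

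The receptors of these ligands were taken as those each ligand is known to bind. *Cxcr2*, the receptor of CXCL1, CXCL2 and CXCL5, had at most 9 counts in any library, with 3, 4, 7 and 4 in control islets and 0, 5, 2 and 5 after IL-1β. *Cxcr3*, for CXCL10, had at most 1 count, *Cxcr6*, for CXCL16, at most 10, and *Ccr6*, for CCL20, at most 7. *Ccr2*, for CCL2 and CCL7, was tested and had 0.453 CPM in control islets and 0.492 CPM after IL-1β (adjusted p = 0.84). Of these 6 receptors *Ccr2* and *Cx3cr1* had enough counts to be tested.

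*Cx3cr1*, the fractalkine receptor of mononuclear phagocytes, rose from 38, 38, 31 and 53 counts to 167, 188, 251 and 406 counts (log2 fold change 2.68, SE 0.33, adjusted p = 2.6e-05) while its ligand had a log2 fold change of 0.08. With both agents it had 99, 87, 155 and 175 counts (log2 fold change -1.01, adjusted p = 0.013), which did not pass the threshold.

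Of 23 chemokine receptors 13 were tested, with a median log2 fold change of 0.27 after IL-1β. IL-1β raised 6 and lowered 0, beside 11.2% of all tested genes that were raised. The largest changes among those raised were in *Ccr1* (2.76, adjusted p = 2.2e-07), *Cx3cr1* and *Ccr3* (2.08, adjusted p = 0.0082). *Ccr3* had at most 11 counts in any library and a control mean of 0.088 CPM, under the floor, so its fold change is uncertain. When butyrate was added to IL-1β, 1 of 13 was lowered and 1 raised, close to the shares of all tested genes (11.1% lowered and 8.41% raised). *Cxcr4*, the CXCL12 receptor, fell from 2.31 to 1.01 CPM (log2 fold change -1.20, adjusted p = 0.00021). *Ccr10*, a CCL28 receptor, rose (1.11, adjusted p = 0.00080).

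Among 29 other chemokine ligands, 27 were in the table and 10 were tested, with a median log2 fold change of 0.11 after IL-1β. The 1 gene raised, beside 11.2% of all tested genes, was *Ccl28*, a mucosal chemokine that binds CCR10 and CCR3. It had 430, 489, 373 and 451 counts in control islets and 4331, 4888, 4072 and 5843 counts after IL-1β (log2 fold change 3.51, SE 0.09, adjusted p = 1.4e-15). With both agents it had 3881, 4614, 3136 and 3087 counts (log2 fold change -0.47, SE 0.08, adjusted p = 0.00021). With butyrate alone it had 203, 247, 171 and 233 counts, below all control libraries (log2 fold change -0.95, SE 0.11, adjusted p = 3.8e-06).

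**Figure D5:**
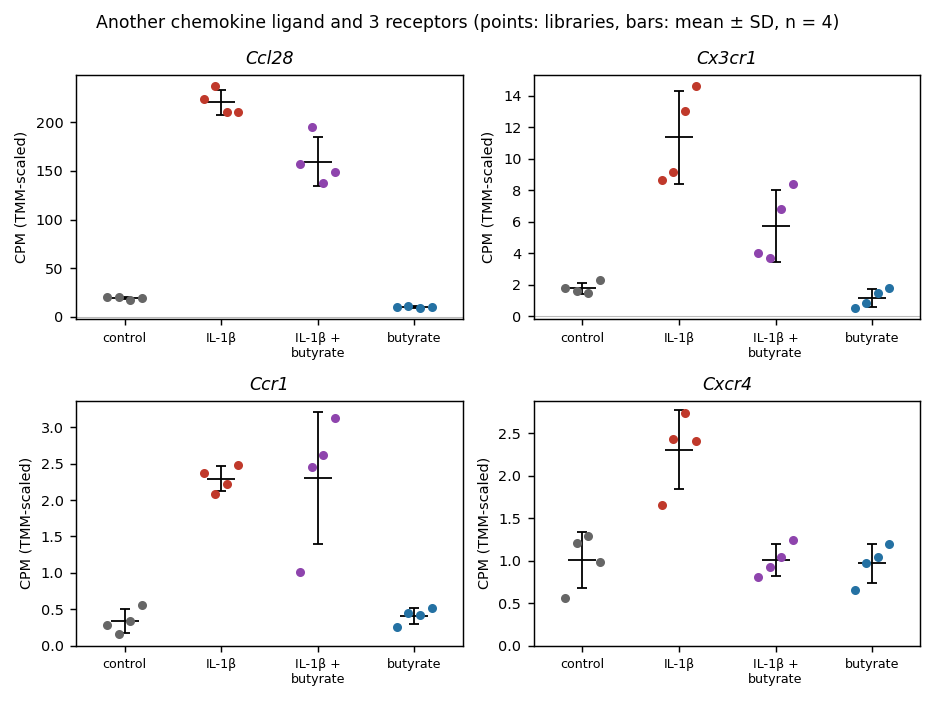
CPM of the ligand *Ccl28* and of the receptors *Cx3cr1*, *Ccr1* and *Cxcr4* in each of 16 libraries (points) by condition, with the mean and SD of 4 libraries (bars). *Ccl28* averages 19.4 CPM in control islets, 220.6 CPM after IL-1β and 10.0 CPM after butyrate, and *Cxcr4* with both agents lies at the level of the control libraries.

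Proteases known to shed or cut chemokines were measured beside them. Of 9 listed 8 were tested, with a median log2 fold change of 1.01 after IL-1β. IL-1β raised 3 and lowered 0, beside 11.2% of all tested genes that were raised. The 3 raised were *Mmp14* (1.68, adjusted p = 5.6e-08), *Adam10*, a main sheddase of CXCL16 and CX3CL1 (0.69, adjusted p = 5.1e-11), and *Adam17*, the inducible sheddase of CX3CL1 (0.29, adjusted p = 0.00015). Adding butyrate to IL-1β raised 2 of 8 and lowered 0, beside 8.41% raised and 11.1% lowered among all tested genes. The median log2 fold change was 0.23. The 2 raised were *Mmp9* (1.69, adjusted p = 0.00078) and *Mmp13* (1.17, adjusted p = 0.0049).

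Of 21 regulators of chemokine genes, all tested, 17 were raised and 0 lowered by IL-1β, beside 11.2% of all tested genes that were raised. The median log2 fold change was 0.68. The largest changes were those of *Zc3h12a*, which encodes the ribonuclease Regnase-1 that degrades inflammatory mRNAs (4.89, adjusted p = 9.3e-22), of the transcription factor *Cebpd* (4.63, adjusted p = 3.4e-10) and of *Nfkb2* (2.62, adjusted p = 1.0e-13). With butyrate added, 3 of 21 were lowered and 2 raised, close to the shares of all tested genes (11.1% lowered and 8.41% raised). *Nfkb2* (-0.53, adjusted p = 9.3e-05) and *Relb* (-0.54, adjusted p = 1.2e-05), the NF-κB subunits of the non-canonical pathway, fell and *Cebpb* rose (0.31, adjusted p = 0.00033). Butyrate alone lowered 4 of 21, beside 11.4% of all tested genes, among them the AP-1 genes *Fos* (-0.97, adjusted p = 0.0071) and *Jun* (-0.58, adjusted p = 1.8e-06) and the NF-κB inhibitor *Nfkbia* (-0.41, adjusted p = 0.0020).

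Macrophages are known to make several of these ligands, and their markers were counted beside them. Of 12 macrophage markers 11 were tested, with a median log2 fold change of 2.19 after IL-1β. IL-1β raised 10, beside 11.2% of all tested genes, and lowered 1, *C1qa*. With butyrate added to IL-1β 5 were lowered and 0 raised, beside 11.1% lowered and 8.41% raised among all tested genes. The summed level of the 12 markers was 129.5 to 142.8 CPM in control libraries, 183.6 to 229.2 after IL-1β, 99.6 to 136.7 with both agents and 85.2 to 106.3 with butyrate alone. *C1qa* alone averaged 111.1 CPM in control islets beside 3.27 CPM for *C1qb*, and without it, a choice made after its values were seen, the sums were 18.7 to 30.1, 92.7 to 161.7, 41.4 to 91.8 and 14.7 to 24.2 CPM. The part of these cells in the chemokine results was not tested.

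Neutrophil markers, 6 genes, summed to 0.769 to 1.98 CPM and T cell markers, 7 genes, to 1.60 to 3.79 CPM over all libraries. Of 6 tested markers of duct cells, another source of chemokines, 4 were raised by IL-1β, beside 11.2% of all tested genes. The duct markers summed to 452 to 483.8 CPM in control libraries, 633.1 to 737.8 after IL-1β and 635.3 to 933.5 with both agents. *Spp1* held most of this rise, with means of 11.9, 157.9 and 347.7 CPM. Without *Spp1*, a choice made after its values were seen, the sums were 437.6 to 472.1, 500.9 to 577.9 and 443.5 to 488.2 CPM. Of 7 acinar markers 4 were tested, with median log2 fold changes of 2.40 after IL-1β and -1.03 when butyrate was added. *Ctrb1*, a digestive protease gene, was the 1 raised by IL-1β (adjusted p = 0.0088), beside 11.2% of all tested genes. Its means were 0.588, 5.65, 1.48 and 0.669 CPM in control, IL-1β, both agents and butyrate. *Cpa1* and *Prss2* were not called and had libraries with 0 counts. *Cela1* went the other way after IL-1β (-0.61, adjusted p = 0.016), and was lowered when butyrate was added (adjusted p = 0.0046). The acinar sum, mostly *Cela1* (21.9 CPM in control islets), was 18.7 to 30.1 CPM in control libraries, 18.9 to 26.5 after IL-1β, 8.51 to 16.3 with both agents and 13.4 to 19.6 with butyrate alone. The part of duct and acinar cells in the results was not tested either.

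Lastly, the genes with the pattern most like each tested member were sought, by Pearson's r of log2 CPM over the 16 libraries, which share the same 4 conditions. For *Cxcl1* these were *Serpina3n* (r = 0.990), *Ttc22* and *Gm38070*, for *Ccl20* they were *Ptprg* (r = 0.992), *Elf3* and *Mal2*, and for *Cxcl5* they were *Fermt3* (r = 0.955), *Serpina3h* and *Il17rc*. For *Cxcl16* they were *B2m* (r = 0.992), *Ifngr2* and *Unc93b1*, and for *Ccl2* they were *Tsen54* (r = 0.944) and *Rit1*. *Cxcl10* (*Lama1*, r = 0.897, *Cyfip1* and *Lipa*) and *Cx3cl1* (*Ccdc28a*, r = 0.851, *Exoc8* and *Med27*) had less similar neighbours. With 16 points in 4 conditions, these values are descriptions only.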

How the data were processed

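Single-end libraries were made with a NEBNext Ultra II kit that does not mark strand and sequenced on an Illumina instrument. The submitters' processing notes name bcl2fastq 2.19.1, STAR 2.5.3a, FastQC 0.11.7, MultiQC 1.7 and DESeq2, and build GRCm38.p5 (mm10). The authors deposited raw, unnormalised counts per Ensembl gene. Identifiers were matched to GENCODE M21 (52489 of 52636), from which coordinates (GRCm38) and exon lengths came. Genes with low counts were removed by edgeR's filterByExpr, and 18587 were tested. One quasi-likelihood model with TMM scaling was fitted to all 16 libraries in edgeR 4.0.16 (R 4.3.3), with Benjamini-Hochberg adjustment over all tested genes and a threshold of 0.01. It was tested on simulated data. CPM, RPKM and correlations were computed from the counts, the last with a prior count of 2. Untested members were compared with exact permutation tests. The floor of 3 counts covers counting error only. Replicate libraries differed by more than counting error. Promoter sequences were from RefSeq (GRCm38.p6). The members and all lists were chosen with earlier results of these data known. All members are named. From each list at most 3 genes were named per comparison, those with the largest change among those that passed. Exceptions were the receptors of the members and markers named to describe their list. Alternatives were DESeq2 1.42.0, other scalings, no filter, a replicate block, separate fits, a threshold of 0.05, leaving out each library and longest-transcript lengths. Same-numbered libraries of different conditions had correlations of their deviations from 0.053 to 0.397 (17 of 24 over 0.1). For differently numbered libraries these were -0.293 to 0.170 (6 of 72 over 0.1). The labels do not give the numbers as pairing, and not every same-numbered pair passed 0.1, so the main fit had no block. One gene that the naming rule selects is not reported here.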

Additional observations from a re-analysis of the deposited data

Results flagged for a closer look

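In 3 of 26 groups of 4 libraries, 1 library stood apart from the other 3 by Dixon's test, and chance gives about 1 in 20. All were for *Cxcl1*. Replicate 3 of IL-1β had 27.5 CPM (532 counts) beside 26.3 to 26.4 CPM in the others (512 to 731 counts). Dixon's test takes no account of counting error. Replicate 2 of IL-1β plus butyrate had 13.6 CPM beside 8.03 to 8.84 CPM in the others. Replicate 1 of butyrate had 1.20 CPM (24 counts) beside 0.209 to 0.310 CPM in the others.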

How the results depend on the processing

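Among 42 log2 values of the 7 tested members, recomputed under up to 24 alternatives (993 values in all), 937 kept their direction and side of the threshold, 42 lost and 3 gained a call, and 11 changed sign. None of the 3 other scalings changed a call. The number of members called for butyrate against control went from 0 to 1 with no filter and to 1 at a threshold of 0.05 (0 to 1 when leaving out 1 library). For IL-1β plus butyrate against control it went from 5 to 3 when only the libraries compared were fitted (3 to 5 when leaving out 1 library), and likewise against butyrate, from 5 to 3 (3 to 5). *Cxcl5* and *Ccl2* then fell under the filter in the separate fits. The 11 changes of sign were in values that passed no threshold. *Cxcl10*, butyrate against control, became 0.22 without control replicate 2, 0.0054 without butyrate replicate 1 and 0.061 without butyrate replicate 3. *Cxcl1* in the same comparison became -0.30 without butyrate replicate 1, and *Cx3cl1* in IL-1β plus butyrate against control became 0.034 with library size only. The interaction of *Ccl20* became -0.37 with DESeq2 and -0.999 without control replicate 4, and that of *Ccl2* became -0.23, -0.020, -0.17 and -0.032 without control replicate 3, IL-1β replicate 1, IL-1β plus butyrate replicate 3 and butyrate replicate 3. When leaving out 1 library, the highest values were 0.80 for *Cxcl1*, 0.40 for *Ccl2* and 0.88 for *Ccl20*, and the lowest for *Cxcl10* was -0.19. The cause was not tested. With the replicate block, which treats equal numbers as 1 experiment, 6 members were raised by IL-1β and 4 lowered when butyrate was added, and no member's call changed (adjusted p = 0.00031 for the fall of *Cxcl5*). In 40 of 48 cases a library correlated best with its own number in another condition, a hint from the data and not the design. Longest-transcript lengths moved 6 of 36 levels per length, all of *Cxcl16* and *Cx3cl1*, for example 3.10 to 3.68 RPKM for *Cx3cl1* in control islets. Low counts limit what can be said of *Ccl2*, *Cxcl2* and *Ccl7* in all conditions, of *Cxcl10* outside IL-1β alone, of *Cxcl5* outside IL-1β alone, and of *Cxcl1* and *Ccl20* without IL-1β.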
